A study of Rattus norvegicus with 42 samples.

Results

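The comparison was between undiluted rat liver and undiluted rat lung, each measured on 3 Affymetrix GeneChip arrays, across all genes and gene families on the array. The arrays were chosen by their tissue label alone, 100% liver against 100% lung, and make up 6 of the 42 arrays of the series. The other arrays held pure brain (3 arrays) and 11 mixtures of cRNA of the 3 tissues (33 arrays). The rats were untreated and 9 to 12 weeks old, and no genotype, strain or sex is used here because the labels name none. The labels give 1 animal as the source of all tissue, and the 3 arrays of a group are technical replicates, so every p-value here measures the spread between arrays and nothing about differences between animals. A level below is the deposited log2 value of a probe set, a group of short probes for 1 transcript, and a difference is the liver mean minus the lung mean on that scale. A gene was called when limma's adjusted p was under 0.05 and the difference was at least 2-fold.

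Liver is built mainly of hepatocytes, which make most plasma proteins, bile acids and urea and break down amino acids, fats and foreign compounds. Its other cells include fenestrated sinusoidal endothelium, resident macrophages called Kupffer cells, vitamin A storing stellate cells and bile duct cells. Lung combines gas-exchanging type 1 cells and surfactant-making type 2 cells of the alveoli, secretory and ciliated cells of the airways, a dense capillary bed, an elastic matrix and many leukocytes. In bulk tissue, fewer cells of a type and less RNA per cell cannot be told apart.

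The tissue labels were checked against defining markers. On the liver arrays Alb (albumin) was at 14.39, 14.22 and 14.32, and on the lung arrays at 4.96, 5.36 and 4.90. Sftpc, the surfactant protein gene of type 2 cells, was at 13.91, 13.86 and 13.88 in lung and at 4.68, 4.04 and 4.69 in liver. Both markers kept their tissues apart on every array. Array medians were 5.48 in liver and 5.73 to 5.75 in lung, and the median SD between replicate arrays was 0.12 in liver and 0.09 in lung. The bacterial dap control, taken here as the dim end of the scale, was at 2.78 in liver and 2.57 in lung, so a fold against a level near 3 is approximate. The bright end was compressed, as the mixtures of the leading genes below show. The 3' minus 5' difference of control probe sets, a sign of RNA quality, was 1.28 in liver and 1.42 in lung for beta-actin, and -0.07 and -0.11 for GAPDH.

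Transcripts tied to sex went against the label of a single source animal. These genes were chosen after their values were seen. Xist, the RNA that coats the inactive X chromosome of female cells, was at 11.11, 11.11 and 11.06 on the liver arrays and at 2.84, 2.91 and 2.88 on the lung arrays, a 298-fold difference (limma adjusted p = 2.01e-42). All 4 Xist probe sets were higher in liver, by 6.25 to 8.22. Eif2s3y, a Y-linked gene for a translation initiation factor subunit, was at 2.94, 3.62 and 2.82 in liver and at 8.92, 8.99 and 9.01 in lung, 57.5-fold higher in lung (adjusted p = 2.23e-29). On the brain arrays Xist was at 11.17, 11.31 and 11.27 on that probe set. On the other 3 Xist probe sets the brain means were 7.23 to 8.12, below liver (9.64 to 10.24) and above lung (2.60 to 3.58). Eif2s3y was at 2.41, 2.63 and 2.41 in brain, lower than in lung.

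The mixtures were made of cRNA of the same tissues, so they show the same split again and add no other animals. Eif2s3y was highest in the mixture with 70% lung, at 8.22 to 8.29, and lowest in that with 1% lung, at 3.05 to 3.21. Xist was lowest in the mixture with 70% lung, at 9.49 to 9.74. Other Y-linked genes differed by less than 2-fold and not all in the direction of Eif2s3y. Uty was at 8.88 in liver and 8.30 in lung (limma adjusted p = 3.69e-08), and its second probe set at 3.96 and 3.22 (adjusted p = 5.66e-08). In brain the first Uty probe set was at 7.88, where Eif2s3y was at 2.48. Sry was at 3.89 and 4.24 (limma adjusted p = 5.36e-04) and Tspy1 at 3.08 and 2.74 (adjusted p = 3.94e-04). Sry, Tspy1 and the second Uty probe set were toward the dim end of the scale (dap at 2.78 and 2.57). Their differences are hard to read there. Between these liver and lung arrays, a difference of tissue and a difference of sex or of animal cannot be told apart.

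**Figure D1:**
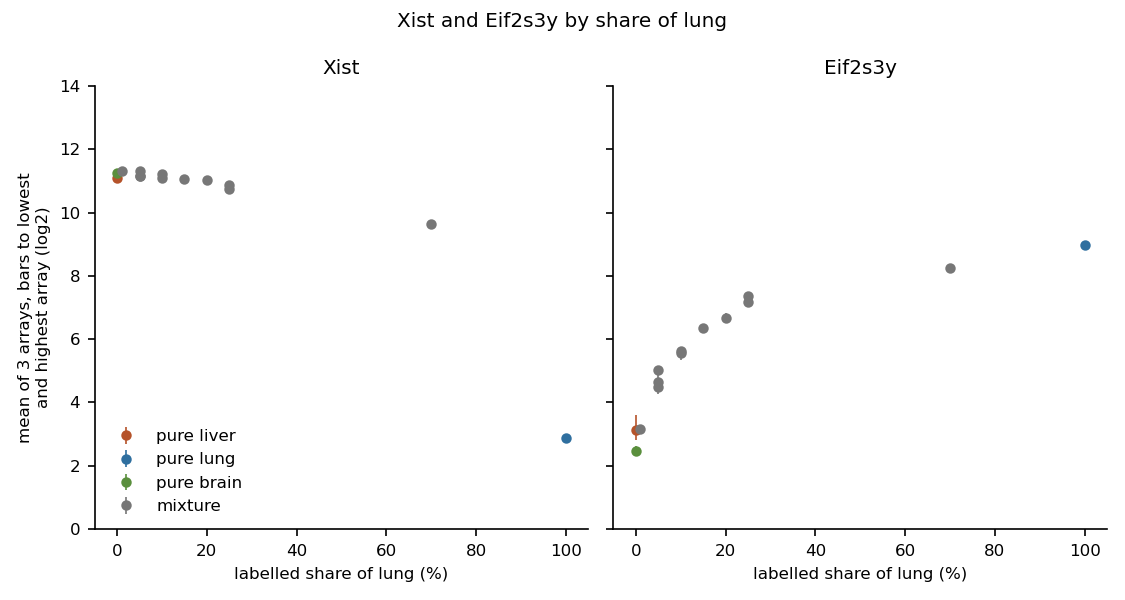
Level of Xist (left) and Eif2s3y (right), 1 probe set each, in log2 against the labelled percentage of lung in the sample. Points are means of 3 arrays for pure liver, pure lung, pure brain and the 11 mixtures, and bars run from the lowest to the highest array. Xist is near 11 wherever lung is a minor part and 2.88 in pure lung, while Eif2s3y climbs with the share of lung to 8.97.

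Of 31042 probe sets tested, 8698 (28.0%) were called, 3367 of them (10.8%) higher in liver and 5331 (17.2%) higher in lung. Every probe set with a difference of at least 2-fold also passed the adjusted p, the largest being 0.0096, so the fold limit alone set the counts. With 1 probe set per gene, 4879 of 14217 genes (34.3%) were called, 1955 (13.8%) higher in liver and 2924 (20.6%) higher in lung. Lung thus had more called genes, but this balance rested on how the arrays were scaled. The share of called genes that were higher in liver was 40.1% as deposited, 54.4% after centring each array on its median and 12.7% after a shift through the hybridisation controls. The control shift was taken over from an earlier look at these data. It changed with level, and liver minus lung was 0.91 for the control bioB, 0.77 for bioC, 0.03 for bioD and -0.19 for cre. Below bioB, the dimmest control it used (8.60 in liver and 7.69 in lung), it was held at its bioB value. Array medians lay below bioB, so most genes took that value. The dimmer dap control, which it did not use, differed by 0.21. Over all genes the median difference was 0.03 as deposited, 0.28 after centring and -0.86 after the control shift. Of 69 gene lists described below, 27 had more members called in liver than in lung as deposited, 32 after centring and 16 after the control shift. A list is best read against these shares and medians.

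Large differences were mostly on the side of liver. At least 64-fold differences were found for 169 genes higher in liver and 38 higher in lung, and at least 100-fold differences for 130 and 19. Moderate differences were mostly on the side of lung. Between 4-fold and 8-fold, 316 genes were higher in liver and 757 in lung. The median fold of the called genes was 3.27 in liver and 3.62 in lung. Liver also had more called genes at high levels, with 104 above a liver level of 12 against 47 above that level in lung. In 83.0% of all genes the 3 liver and 3 lung arrays did not overlap, far more genes than were called.

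**Figure D2:**
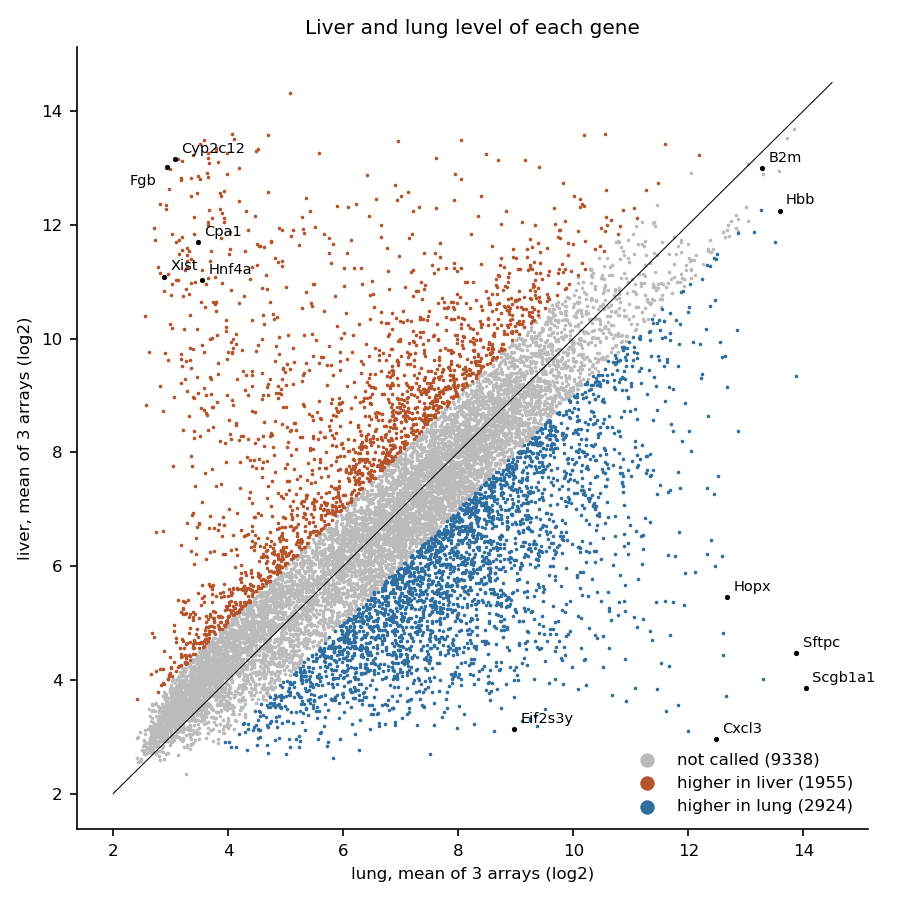
Mean liver level (vertical) against mean lung level (horizontal) of 14217 genes, log2, 3 arrays each, with genes higher in liver in red-brown, higher in lung in blue and not called in grey. The line marks equal levels. The upper left corner holds more genes than the lower right, as the 169 and 38 genes past 64-fold show.

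The genes with the largest differences higher in liver encoded plasma proteins and enzymes of hepatocytes. Fgb, the fibrinogen beta chain, was at 13.02 ± 0.02 (SD, n = 3) in liver and at 3.07, 2.92 and 2.82 in lung, a 1086-fold difference (difference 10.09, SE 0.06, limma adjusted p = 8.21e-47). Its other probe sets were dim in both tissues, at 3.55 in liver and 2.70 and 2.91 in lung, so the call rests on 1 of 3. Cyp2c12, a cytochrome P450 of steroid metabolism, was at 13.18, 13.09 and 13.18 against 3.05, 3.09 and 3.11, a 1070-fold difference. The plasma glycoprotein gene A1bg differed 1043-fold, Cyp2c6v1 1021-fold and Cyp2c7 962-fold. Hpd, an enzyme of tyrosine breakdown, was at 13.09, 13.13 and 13.14 in liver and at 3.09, 3.03 and 3.44 in lung, 977-fold. Rup2 differed 970-fold with all 4 probe sets called, the fatty acid binding protein gene Fabp1 917-fold, the antithrombin gene Serpinc1 806-fold and the aldo-keto reductase gene Akr1b7 806-fold. In each of these 10 genes the liver arrays lay close together and far above every lung array, which picking the largest differences made certain.

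On the lung side the 10 genes with the largest differences were of several kinds. Scgb1a1, the secretoglobin of airway club cells, was at 14.06, 14.05 and 14.03 in lung and at 4.15, 3.61 and 3.81 in liver, 1168-fold higher in lung (difference -10.19, SE 0.08, limma adjusted p = 8.99e-43). The neutrophil-attracting chemokine gene Cxcl3 was at 12.51, 12.46 and 12.48 in lung and at 2.94, 3.01 and 2.91 in liver, 739-fold. A second Cxcl3 probe set differed by -6.51, while 3 others differed by -0.57 to -0.31 and were not called. Sftpc differed 681-fold, Sftpa1 624-fold and Sftpb 490-fold. Lamp3, a protein of the lamellar bodies that store surfactant, differed 473-fold, Sec14l3 307-fold, Ly6i 289-fold, the beta-defensin gene Defb4 289-fold and the microfibril protein gene Mfap4, on the list of fibroblasts and elastic fibre, 220-fold. No array of one tissue overlapped with the other for any of these 10 genes. They were picked for their large differences, and arrays of 83.0% of all genes did not overlap either.

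**Figure D3:**
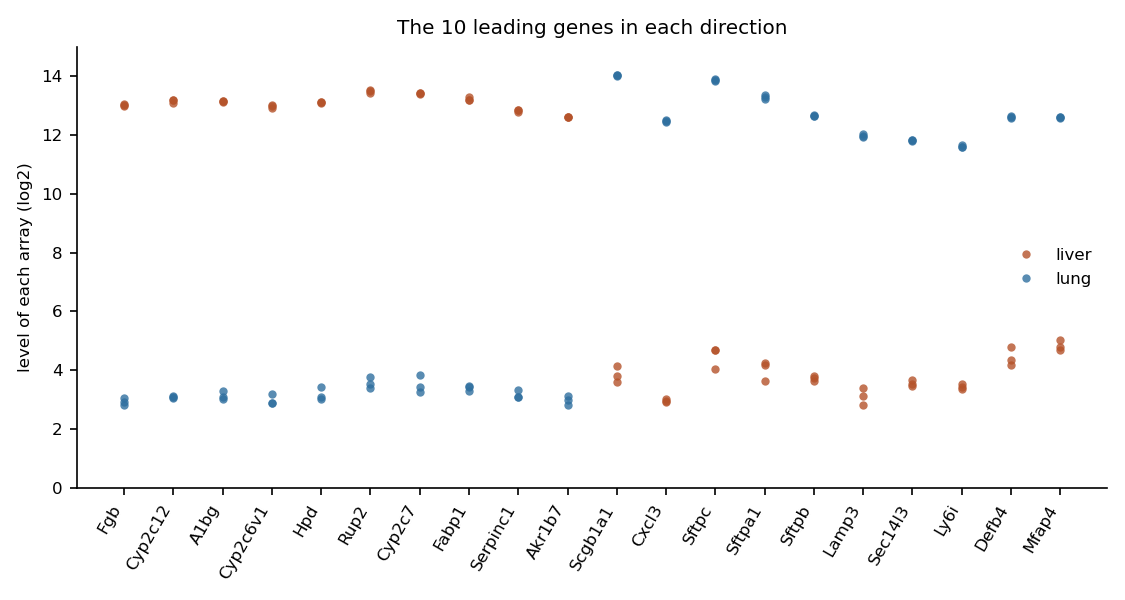
Level of each single array (log2) for the 10 genes with the largest difference in each direction, 3 liver arrays in red-brown and 3 lung arrays in blue. The lowest array of a higher tissue is at 11.60 (Ly6i) and the highest array of a lower tissue at 5.04 (Mfap4).

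The folds of the brightest of these probe sets are not ratios of RNA amount, as the mixtures with 5% of a tissue showed in a check made after the values were seen. In the mixture with 5% liver, Rup2 was 1.19 below its level in pure liver, where the labelled shares of the pure levels give a fall of 4.07. Cyp2c7 fell by 1.79 and Cyp2c12 by 1.83, and the remaining 7 leading liver genes by 2.48 (Cyp2c6v1) to 3.54 (Akr1b7), where the shares give 4.18 to 4.26. With 5% lung, the mean of 3 mixtures, Scgb1a1 and Sftpc both fell by 1.74 where the shares give 4.30 and 4.29, while Sec14l3 fell by 4.20 where they give 4.24. All 20 leading genes stayed above the level computed from the shares, by 0.05 (Sec14l3) to 2.87 (Rup2). Over called genes the median of this excess was 0.40 for the 104 with a liver level above 12 and 0.18 for the 47 with a lung level above 12. For called genes with levels of 10 to 12 it was -0.16 in liver and -0.04 in lung. The order of the leading genes is therefore that of array values alone.

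Secreted plasma proteins made a large block of the liver side. Of 28 measured complement genes, 23 were higher in liver and 3 in lung, with a median difference of 3.20 against 0.03 over all genes. Mbl2, the mannose-binding lectin that starts the lectin pathway, was at 11.56, 11.59 and 11.53 in liver and at 3.15, 3.38 and 3.04 in lung, 330-fold. C8a, a subunit of the membrane attack complex, differed 238-fold and the C4-binding protein gene C4bpb 111-fold. The 3 members higher in lung were receptors and regulators on cell surfaces, not secreted factors: Cd55, a decay-accelerating factor, 30.4-fold, the C5a receptor gene C5ar1 3.26-fold and Cd46 2.35-fold.

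Coagulation genes were found on both sides. Of 30 measured genes of clotting and fibrinolysis, 18 were higher in liver and 11 in lung. The fibrinogen alpha chain gene Fga was at 13.49, 13.50 and 13.51 in liver and at 4.12, 4.16 and 4.03 in lung, 672-fold. The fibrinogen gamma chain gene Fgg, named after its values were seen, differed less, at 13.13 ± 0.06 (SD, n = 3) in liver and 9.16 ± 0.02 in lung, 15.7-fold. On the lung side were genes active at the vessel wall, among them thrombomodulin (Thbd) at 11.25, 11.16 and 11.18 in lung and 6.07, 5.97 and 6.04 in liver, 36.0-fold, tissue factor (F3) 26.0-fold and von Willebrand factor (Vwf), which endothelium secretes, 25.7-fold.

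Among 18 measured apolipoprotein genes, 14 were higher in liver and 2 in lung, and the median difference was 7.85. Apoa2, a protein of high-density lipoprotein, was 739-fold, Apoh 731-fold and Apob, the scaffold of very-low-density lipoprotein, 689-fold higher in liver. The exceptions, Apol3-ps1 and Apol11a, were 7.38-fold and 4.54-fold higher in lung. Of 33 serpins, inhibitors of serine proteases, 16 were higher in liver and 7 in lung. The liver members were led by Serpinc1, Serpina3l (789-fold) and Serpina3c (708-fold), and the lung members by the intracellular Serpinb10 (27.2-fold), Serpinb1a (17.1-fold) and Serpinb6a (8.40-fold).

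Amino acid breakdown and the urea cycle were higher in liver without exception. All 39 measured members of that list were called, with differences from 1.45 to 9.93 and a median of 4.95. Tdo2, which opens the tryptophan ring, was at 12.83, 12.88 and 12.88 in liver and at 3.36, 3.69 and 3.36 in lung, 672-fold. Cps1, the entry enzyme of the urea cycle, was at 12.63, 12.33 and 12.58 against 3.33, 3.46 and 3.28, 569-fold. Peroxisomal and bile acid genes followed, with 21 of 22 higher in liver and a median difference of 4.98. Among them the bile acid uptake carrier Slc10a1 was 338-fold higher, the bile acid-CoA ligase Slc27a5 293-fold and the organic anion carrier Slco1b2 272-fold.

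Fat metabolism was less one-sided. Of 41 genes of acyl-CoA metabolism 31 were higher in liver, led by Acsm1 (63.7-fold), the peroxisomal enzyme Ehhadh (60.0-fold) and the thioesterase Acot4 (58.6-fold), and 1, Acot9, was higher in lung (6.84-fold). Cholesterol and fatty acid synthesis had 16 of 26 genes higher in liver, with a median difference of 1.49. Thrsp, a regulator of lipogenesis, was 32.7-fold higher, the sterol enzyme Nsdhl 12.5-fold and Insig2 11.6-fold. Fasn (fatty acid synthase) was at 10.36 in liver and 10.40 in lung, and the desaturase Scd at 10.99 and 10.95, both picked out after their values were seen.

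Enzymes that handle drugs, steroids and toxins were mostly, but not all, on the liver side. Of 55 cytochrome P450 genes, 30 were higher in liver, 6 in lung and 19 were not called. The leading liver members beside those above included Cyp2d2 (631-fold) and Cyp1a2 (341-fold). Cyp2a3 was at 7.59, 7.71 and 7.72 in lung and at 3.83, 3.62 and 3.95 in liver, 14.7-fold higher in lung. Cyp26b1, which degrades retinoic acid, was 14.3-fold and Cyp4b1 10.2-fold higher in lung. Members of this family were thus high in either tissue.

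Conjugating enzymes followed. Of 9 UDP-glucuronosyltransferases 7 were higher in liver, with Ugt2b 690-fold, Ugt2b35 426-fold and Ugt2b15 356-fold. Sulfotransferases had 7 of 14 higher in liver, with Sult1b1 518-fold, Sult2a6 409-fold and Sult1c2a 61.7-fold. P450 enzymes, glucuronosyltransferases and sulfotransferases of close sequence can share probes, so single members of these families are uncertain. Glutathione S-transferases had 16 of 23 higher in liver, with Gstp3 at 115-fold, Gsta3 at 27.8-fold and Gstk1 at 15.2-fold. The pi-class Gstp1 went the other way, at 8.72, 8.79 and 8.68 in liver and 10.92, 10.85 and 10.89 in lung, 4.45-fold, and so did Gstm5, 3.96-fold.

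Flavin monooxygenases and carboxylesterases had 5 of 9 members higher in liver, with Ces1c 245-fold, Ces1e 26.5-fold and Fmo5 15.8-fold. The exception was Fmo2, the flavin monooxygenase known from lung, at 10.52, 10.51 and 10.52 there and 4.57, 3.87 and 4.26 in liver, 77.9-fold. Of 22 aldehyde and alcohol dehydrogenases 13 were higher in liver, among them the folate enzyme Aldh1l1 (46.8-fold), Aldh1b1 (46.7-fold) and Adh1c (27.3-fold). On the lung side were 4, including Aldh3b1 (7.85-fold) and the retinoic acid-forming enzymes Aldh1a2 (6.43-fold) and Aldh1a3 (3.18-fold).

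Transporter families were divided. ABC transporters had 12 of 37 higher in liver and 11 in lung, and after the shift through the hybridisation controls 8 and 14. The canalicular pumps that move bile into the ducts were on the liver side: Abcb11, the bile salt pump, at 10.70, 10.60 and 10.67 against 3.64, 3.67 and 3.28 in lung, 139-fold, Abcc2 123-fold and the phospholipid pump Abcb4 21.6-fold. Lung had Abcg1, a cholesterol exporter of macrophages, 12.1-fold, Abca5 7.08-fold and Abcc1 6.24-fold. Organic anion and cation carriers had 9 of 35 higher in liver and 5 in lung, which became 7 and 8 under that shift. Slco3a1 was 11.1-fold and Slco1a5 10.8-fold higher in lung. Mitochondrial carriers had 15 of 40 in liver and 3 in lung, and 9 and 11 under the shift. The ornithine carrier Slc25a15 was 16.9-fold and the aspartate-glutamate carrier Slc25a13 14.3-fold higher in liver, and the ADP/ATP carrier Slc25a4 8.76-fold higher in lung.

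Transcription factors marked each tissue. Of 18 measured hepatocyte factors, 15 were higher in liver. Hnf4a, a nuclear receptor that governs hepatocyte genes, was at 11.06, 10.98 and 11.01 in liver and 3.49, 3.64 and 3.51 in lung, 178-fold. Onecut1 (HNF6) was at 10.76, 10.81 and 10.78 against 3.41, 3.13 and 3.40, 177-fold, and Creb3l3 60.0-fold. Foxa2, a forkhead factor of both organs picked out after its values were seen, was at 8.76 in liver and 8.88 in lung and was not called. Among 40 nuclear receptors 12 were higher in liver and 6 in lung, a balance that turned to 7 and 13 under the shift through the hybridisation controls. The bile acid receptor Nr1h4 (FXR) was 54.5-fold and Nr5a2 14.3-fold higher in liver, and Nr4a1 4.45-fold, Rarg 3.33-fold and Pparg 3.15-fold higher in lung.

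On the lung list 23 of 30 factors were higher in lung and 1 in liver. Hopx, a homeodomain protein of type 1 cells, was at 12.73, 12.68 and 12.63 in lung and 5.53, 5.41 and 5.39 in liver, 150-fold. Nkx2-1, the factor that specifies lung epithelium and also named after its values were seen, was at 9.56, 9.55 and 9.51 against 4.97, 4.23 and 4.83, 29.1-fold. Factors of lung mesenchyme and endothelium included Tbx4 (56.3-fold), Hoxa5 (10.13 against 5.08 in liver), Tbx5 (28.2-fold) and Foxf1 (20.3-fold). The member on the other side was Foxa1, at 7.66, 8.08 and 7.90 in liver and 4.51, 4.59 and 4.48 in lung, 10.2-fold. Foxa1 was also on the hepatocyte list, as was Foxa2. Of 28 Hox and Tbx factors 4 (14.3%, against 20.6% of all genes) were higher in lung, the fourth being Hoxb2 (3.93-fold). Of 34 Sox, Gata and Klf factors, 15 were higher in lung, led by Klf5 (38.1-fold), Klf4 (24.1-fold) and Sox4 (20.1-fold), and 4 in liver, with Gata4 at 7.77-fold, Klf12 at 5.07-fold and Klf15 at 4.37-fold.

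Endocrine genes of the growth hormone and IGF axis had 11 of 21 members higher in liver and 5 in lung, or 7 on each side under the shift through the hybridisation controls, with a median difference of 1.15 as deposited and 0.24 after that shift. The prolactin receptor gene Prlr was at 12.09, 12.12 and 12.12 in liver and 3.78, 3.59 and 3.77 in lung, 337-fold. Igfals, the acid-labile subunit that carries IGF in plasma, was 85.8-fold and the binding protein gene Igfbp1 73.2-fold higher in liver. The binding protein genes Igfbp5 (23.0-fold) and Igfbp7 (7.61-fold) and the receptor gene Igf1r (5.36-fold) were higher in lung, so receptors and binding proteins were found on both sides.

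Rat liver expresses several genes in a sex-dependent manner, and these were looked up after the sex-linked transcripts had been seen, so they are given with no test. Of genes listed as female-predominant, Cyp2c12 was at 13.15 in liver, A1bg at 13.15, Akr1b7 at 12.63, Sult2a6 at 12.59, Cyp3a9 at 12.16, Prlr at 12.11 and Cyp2a1 at 11.24. Of genes listed as male-predominant, Cyp2c11 was at 3.95, 4.33 and 4.34 in liver and 3.97, 3.90 and 3.77 in lung, Cyp3a2 at 3.43 and 2.79, Cyp2a2 at 3.57 and 2.84, Obp3 at 3.96 and 3.42 and Mup5 at 3.55 and 3.06. Others on the male list were not low: Cyp2c22 was at 11.80, 11.82 and 11.85 in liver against 3.35, 3.41 and 3.45 in lung, 343-fold, Cyp3a18 at 8.28 against 3.51 and Cyp2c13 at 5.40 against 3.12. The sex bias of Sult2a6, Akr1b7 and Cyp2c22 is the least sure of these listings. Cyp2c12, A1bg and Akr1b7 are among the 10 leading liver genes, and the part of sex in their difference from lung was not tested.

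Epithelial cells of the lung were represented by 4 lists. Of 19 measured genes of surfactant and type 2 cells, 14 were higher in lung, with a median difference of -5.33. The 5 that were not called were the lysosomal protease genes Ctsh and Ctsc, the lipogenic Scd and Fasn, and Pgc. Of 18 genes of type 1 cells and caveolae, 17 were higher in lung. Pdpn (podoplanin) was at 11.71, 11.59 and 11.75 in lung and 4.22, 4.83 and 5.32 in liver, 119-fold, and Ager, the receptor for glycation end products, named after its values were seen, at 11.67, 11.67 and 11.45 against 5.24, 5.33 and 5.61, 73.7-fold. Airway secretory cells had 9 of 14 higher in lung, with Bpifa1 26.2-fold. Ciliated cells had 11 of 16, with the dynein light chain gene Dynlrb2 59.8-fold, Lrrc23 10.6-fold and Tekt1 9.44-fold. Their master regulator Foxj1, picked out after its values were seen, was at 4.30 in liver and 5.17 in lung and was not called.

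**Figure D4:**
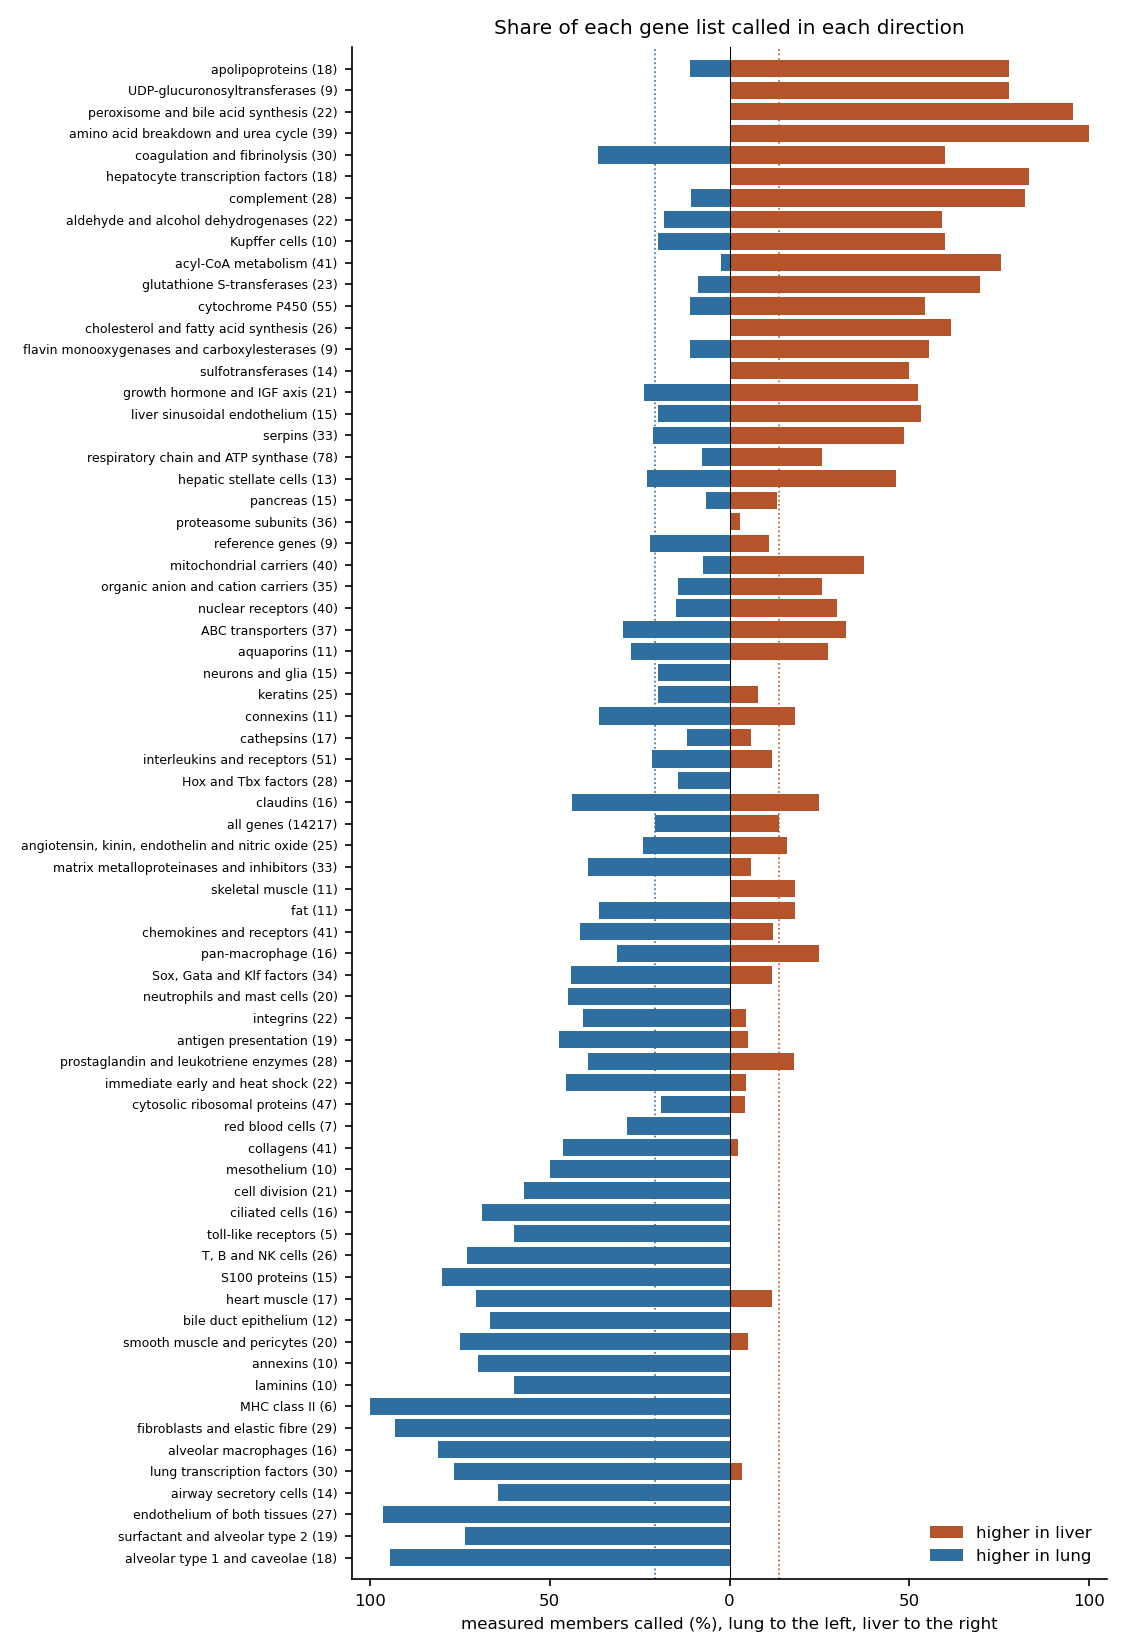
Percentage of measured members called higher in liver (red-brown, to the right) and higher in lung (blue, to the left) for 69 gene lists and for all genes, ordered by median difference, with the number measured in parentheses. Dotted lines mark the shares over all genes, 13.8% and 20.6%. Lists of hepatocyte function sit at the top and lists of lung epithelium, endothelium and matrix at the bottom.

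Of 27 measured genes listed for endothelium of both tissues, 26 were higher in lung, with a median difference of -3.40. Whether liver vessels express each of them, and the part of endothelial cell number, was not tested. Tmem100 was at 11.46, 11.47 and 11.45 in lung and 3.74, 3.82 and 3.95 in liver, 197-fold. The tight junction gene Cldn5 was 149-fold and the peptide gene Apln 50.7-fold higher, from dim liver levels of 4.30 and 4.02. The exception, Nos3, was at 4.46 in liver and 4.89 in lung. Sinusoidal endothelium showed another balance, 8 of 15 higher in liver and 3 in lung, or 4 and 5 under the shift through the hybridisation controls. The hyaluronan receptor gene Stab2 was at 8.13, 8.25 and 8.32 in liver and 4.50, 4.27 and 4.25 in lung, 14.9-fold, Dnase1l3 9.71-fold and the lectin gene Clec4m 4.96-fold. In lung F8 was 3.41-fold, Lyve1, also a marker of lymphatic vessels, 2.47-fold and Gpr182 2.29-fold higher.

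Matrix genes and those of its cells were mostly higher in lung where they were called. Of 29 genes of fibroblasts and elastic fibre 27 were higher in lung, with a median difference of -2.79. Postn (periostin) was at 11.66, 11.69 and 11.62 in lung and 4.66, 3.78 and 4.29 in liver, 170-fold, and Mfap5 was 57.3-fold higher. Fn1 (fibronectin), which hepatocytes secrete into plasma, was at 11.67 in liver and 11.19 in lung. Collagens had 19 of 41 members higher in lung, with Col6a5 33.3-fold, the basement membrane chain Col4a5 23.4-fold and Col1a1 23.4-fold. Col18a1, the precursor of endostatin, was the only collagen higher in liver, at 8.95, 8.90 and 9.01 against 6.41, 6.34 and 6.33, 6.06-fold with both probe sets called. Laminins had 6 of 10 higher in lung, led by Lamb2 (17.6-fold), Lamb3 (13.5-fold) and Lama5 (12.1-fold).

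Integrins had 9 of 22 members higher in lung, with the epithelial Itgb6 at 9.46, 9.49 and 9.55 against 3.68, 3.24 and 3.51 in liver, 65.0-fold, Itga6 16.7-fold and Itga8 12.0-fold. The platelet chain Itga2b was 2.39-fold higher in liver. Matrix metalloproteinases and inhibitors had 13 of 33 in lung and 2 in liver. The inhibitor Timp3 was 23.2-fold, Adamts8 15.1-fold and Mmp2 13.2-fold higher in lung, and Mmp19 7.06-fold and Mmp23 2.05-fold higher in liver. Of 20 genes of smooth muscle and pericytes 15 were higher in lung, led by Tagln (25.8-fold), Actg2 (22.8-fold) and Tpm2 (14.8-fold), and Kcnj8 was 2.10-fold higher in liver. Stellate cell genes were divided, 6 of 13 in liver and 3 in lung, or 4 on each side under the shift through the hybridisation controls. Colec11 was 50.9-fold, Angptl6 13.2-fold and Lhx2 11.6-fold higher in liver, while Vipr1 (5.74-fold), the muscle filament gene Des (4.21-fold) and Sod3 (2.14-fold) were higher in lung.

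Gene lists of the resident macrophages of each organ had more members higher in that organ than in the other. Kupffer cell genes had 6 of 10 members higher in liver and 2 in lung. Cd5l was at 9.75, 9.68 and 9.73 in liver and 3.34, 3.08 and 3.12 in lung, 93.1-fold, the lectin gene Clec4f 46.8-fold and C6, a complement factor that hepatocytes also make, 16.5-fold. The factors Spic (3.50-fold) and Id3 (2.72-fold) were higher in lung. Alveolar macrophage genes had 13 of 16 higher in lung, with Cd9 67.2-fold, Car4 27.7-fold and Plet1 26.9-fold, though Cd9 and Car4 are also made by other lung cells. Genes of macrophages in general had 4 of 16 members in liver and 5 in lung, or 1 and 9 under the shift through the hybridisation controls. The complement genes C1qb (3.43-fold) and C1qa (3.15-fold) and the endotoxin receptor gene Cd14 (3.60-fold) were higher in liver. In lung Lyz2 (lysozyme, also of type 2 cells) was 23.0-fold, Laptm5 5.45-fold and Fcer1g 4.75-fold higher.

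Genes of lymphocytes, granulocytes and antigen presentation were mostly higher in lung where they were called. Of 26 genes of T, B and NK cells 19 were higher in lung, with Klrd1 9.98-fold, Prf1 (perforin) 9.56-fold and the leukocyte phosphatase gene Ptprc 9.56-fold. Neutrophil and mast cell genes had 9 of 20, with the calprotectin genes S100a9 (15.1-fold) and S100a8 (10.3-fold) and the mast cell protease gene Mcpt10 (10.4-fold). All 6 MHC class II genes were higher in lung, where RT1-Bb was at 10.42, 10.45 and 10.32 against 7.12, 6.95 and 7.08 in liver, 10.2-fold, RT1-Ba 7.91-fold and RT1-Da 7.56-fold. Another RT1-Ba probe set was called the other way, by 1.05. Of 19 genes of antigen presentation, 9 were higher in lung and 1, the lipid-presenting Cd1d1, 2.73-fold higher in liver.

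Chemokines and their receptors had 17 of 41 members higher in lung and 5 in liver. Beside Cxcl3, lung had Cxcr4 (38.5-fold) and the eosinophil chemokine gene Ccl11 (25.8-fold). In liver the interferon-induced Cxcl11 was at 9.91, 10.08 and 10.02 against 4.20, 4.08 and 3.99 in lung, 60.2-fold, Ccl9 at 32.0-fold and Cxcl9 at 3.28-fold. Interleukins and receptors had 11 of 51 (21.6%) in lung and 6 (11.8%) in liver, near the 20.6% and 13.8% of all genes. These counts became 7 and 8 after median centring and 19 and 1 under the shift through the hybridisation controls. The shared receptor chain Il2rg was 12.9-fold and Il1b 3.55-fold higher in lung, and Il1rap, a chain of the IL-1 receptor, 11.2-fold higher in liver. Cathepsins, lysosomal proteases, had 1 of 17 in liver and 2 in lung, or 3 and 2 after median centring and 0 and 6 under that shift, with Ctso 2.05-fold higher in liver and Ctse 5.55-fold and Ctsd 2.66-fold in lung. Of 5 toll-like receptors 3 were higher in lung, the endotoxin receptor Tlr4 7.49-fold, Tlr8 4.13-fold and Tlr7 3.36-fold.

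Junction, channel and surface families held members of both tissues. Claudins, the sealing proteins of tight junctions, had 4 of 16 in liver and 7 in lung. Cldn2 was at 8.98, 9.01 and 8.94 in liver and 3.02, 3.18 and 2.95 in lung, 60.8-fold, and Cldn1 11.6-fold and Cldn14 10.7-fold. Cldn18, a type 1 cell claudin, was at 11.41, 11.35 and 11.36 in lung and 4.94, 4.46 and 4.69 in liver, 102-fold, and Cldn11 27.2-fold. Connexins had 2 of 11 in liver, Gjb1 (37.4-fold) and Gjb2 (19.4-fold), the channels that couple hepatocytes, and 4 in lung, including the vascular Gja5 (13.8-fold) and Gja4 (8.46-fold). Aquaporins had 3 of 11 on each side. Aqp8 (78.3-fold), the glycerol channel Aqp9 (55.8-fold) and Aqp11 (11.9-fold) were higher in liver, and Aqp4 (72.8-fold), Aqp5 (27.4-fold) and Aqp1 (4.26-fold) in lung.

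Keratins had 2 of 25 in liver and 5 (20.0%) in lung, with 7 and 5 after subtraction of the 5th percentile. As deposited, the lung share was near the 20.6% of all genes and the liver share was below their 13.8%. Krt23 was 11.8-fold and Krt18 3.14-fold higher in liver, and Krt19 53.4-fold, Krt7 29.6-fold and Krt13 13.1-fold in lung. Both families of calcium-binding proteins were on the lung side where called. Annexins had 7 of 10, with Anxa8 51.1-fold, Anxa1 at 12.32, 12.35 and 12.30 against 7.35, 7.41 and 7.39, 30.7-fold, and Anxa2 22.2-fold. S100 proteins had 12 of 15, with S100a6 88.7-fold, S100g 34.4-fold and S100a11 30.6-fold.

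Genes of the vasoactive systems were found on both sides, at shares near those of all genes. Agt (angiotensinogen), the precursor, was at 10.80, 10.83 and 10.82 in liver and 5.44, 5.31 and 5.32 in lung, 44.0-fold. Ace, the enzyme that forms angiotensin II, was at 10.18, 10.11 and 10.20 in lung and 5.67, 5.30 and 5.48 in liver, 25.5-fold. The receptor gene Agtr1a was 4.91-fold and the kallikrein gene Klkb1 54.0-fold higher in liver, and the adrenomedullin receptor parts Ramp2 (25.1-fold) and Calcrl (11.5-fold) higher in lung. The list had 4 of 25 members in liver and 6 in lung, 7 and 6 after median centring, and 3 and 12 under the shift through the hybridisation controls. Prostaglandin and leukotriene genes had 5 of 28 in liver and 11 in lung. The phospholipase gene Pla2g1b was 47.8-fold and Hpgd, which inactivates prostaglandins, 36.0-fold higher in lung, while the receptor gene Ptger3 (8.81-fold), the epoxide hydrolase Ephx2 (7.52-fold) and Hpgds (3.52-fold) were higher in liver.

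Lists of genes used by every cell held differences from -2.86 to 1.97, but not all were called less often than all genes. Of 47 cytosolic ribosomal protein genes 2 were higher in liver and 9 in lung, with a median difference of -0.72, and after median centring 3 and 0. Rpl13a was 2.29-fold, Rps16 2.15-fold and Rpl3 2.12-fold higher in lung. Of 78 genes of the respiratory chain and ATP synthase 20 (25.6%) were higher in liver and 6 (7.69%) in lung, against 13.8% and 20.6% of all genes. Their median difference was 0.70, and the counts were 5 and 7 under the shift through the hybridisation controls. Ndufv3 was 3.92-fold, Ndufc1 3.25-fold and Ndufa11 3.17-fold higher in liver. The members higher in lung were led by Cox7a1 (7.25-fold), Ndufa4l2 (5.39-fold) and Cox8b (3.70-fold), of which Cox7a1 and Cox8b are known from muscle. Of 36 proteasome subunits 1, Psmd9, was called, 3.04-fold higher in liver, while 7 were higher in liver after median centring and 2 higher in lung under that shift.

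Cell division genes had 12 of 21 higher in lung, with Aurkb 8.66-fold, Cdk1 6.16-fold and Mki67 4.30-fold, all at low levels in liver (3.58 to 4.35). Immediate early and heat shock genes had 10 of 22 higher in lung, with the small heat shock protein Hspb1 11.9-fold, Egr2 6.05-fold and Jun 4.68-fold, and 1, Hsph1, 2.19-fold higher in liver. Among genes often used as references none was level by the test. B2m came closest at 12.97 to 13.02 in liver and 13.29, 13.30 and 13.26 in lung, 1.22-fold. Tbp differed 1.39-fold, Hprt1 1.47-fold, Gusb 1.67-fold, Sdha 1.74-fold and Polr2a 1.63-fold, Pgk1 was 2.23-fold higher in liver and Ywhaz 3.23-fold and Rpl13a 2.29-fold higher in lung. Tbp and Gusb were higher in liver as deposited and higher in lung after the shift through the hybridisation controls.

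Markers of other cell types that the samples could hold were examined as whole lists. Of 17 heart muscle genes 12 were higher in lung and 2 in liver, and their summed level (log2 of the summed linear values) was 11.51 to 11.53 on the lung arrays and 8.88 to 9.00 on the liver arrays. Myh6, a myosin heavy chain of heart, was at 9.29, 9.29 and 9.38 in lung and 4.10, 3.58 and 4.37 in liver, 39.4-fold. The atrial light chain Myl7 differed 29.9-fold and Ankrd1 28.7-fold. The 2 members higher in liver were Myl2, at 4.42 in liver and 3.19 in lung, and Myh7, at 4.12 and 2.98. The part of heart muscle in the other lung differences was not tested. In the mixtures Myh6 was at 8.74 with 70% lung and 4.23 with 1% lung.

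Of 15 pancreas genes 12 were not called. The exception was Cpa1, the digestive carboxypeptidase A1, at 11.72, 11.67 and 11.72 in liver and 3.68, 3.35 and 3.41 in lung, 299-fold. Other acinar genes, named after their values were seen, did not follow: Prss1 was at 3.57 in liver and 2.98 in lung, Prss2 at 2.93 and 2.80 and Cela2a at 3.47 and 3.26. Amy2a3 was 2.36-fold higher in liver at levels near the dim end, and Cela1 2.67-fold higher in lung. Cpa1 was also at 11.26 and 11.23 in the mixtures with 70% liver and 7.08 with 5%.

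Skeletal muscle genes had 2 of 11 higher in liver, or 1 in liver and 6 in lung under the shift through the hybridisation controls. Myh1 was at 11.29, 10.95 and 11.25 in liver and 9.38, 9.48 and 9.42 in lung, 3.33-fold. That probe set was also at 10.23 in brain, and whether it measures Myh1 alone was not tested. Myh2 was at 4.64 in liver and 3.29 in lung, and Acta1, the skeletal actin, at 8.33 and 9.29 and not called. Of 7 red blood cell genes 2 were higher in lung. Hbb, beta globin, was at 12.24, 12.24 and 12.27 in liver and 13.58, 13.58 and 13.60 in lung, 2.53-fold, and Ahsp 2.86-fold. Neuron and glia genes had 3 of 15 (20.0%) higher in lung, near the 20.6% of all genes, and a median difference of 0.35. These 3 were Map2 (6.05-fold), S100b (2.35-fold) and Stmn2 (2.25-fold). Summed levels of that list were 8.17 to 8.23 in liver and 8.41 to 8.57 in lung. Fat genes had 2 of 11 in liver and 4 in lung, with Cidec 18.5-fold higher in liver and Lpl 7.63-fold and Fabp4 6.47-fold higher in lung. Mesothelial genes had 5 of 10 higher in lung, with Upk1b 15.5-fold and Msln 4.73-fold. Bile duct genes had 8 of 12 higher in lung, led by Krt19, Krt7 and Muc1 (49.8-fold), which lung epithelium also expresses.

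Related genes of 1 family, mostly enzymes and carriers but also transcription factors, keratins, claudins and receptors, were set side by side as pairs of a liver form and a second form. Of 47 listed pairs 37 were measured on both sides, and in 26 the members were called in opposite directions. In 25 of those the listed liver form was the one higher in liver. Over all genes 13.8% were called higher in liver and 20.6% in lung, and pairs drawn from all genes were not counted. The pairs were listed with earlier results of these data known, so the counts of pairs are descriptions only. Some genes stand in more than 1 pair (Fabp1, Aqp9, Car3 and Fmo2), and with each gene used once, 23 of 33 pairs were called in opposite directions. The glucose transporter Slc2a2 differed by 8.34 and Slc2a1 by -1.65, and the methionine adenosyltransferases Mat1a and Mat2a by 6.82 and -1.79. Glycogen synthases Gys2 and Gys1 differed by 4.85 and -1.16, glycogen phosphorylases Pygl and Pygb by 2.36 and -3.23, and fructose bisphosphatases Fbp1 and Fbp2 by 7.11 and -1.54. Lactate dehydrogenase subunits Ldha and Ldhb differed by 1.56 and -2.58. Antioxidant enzymes were also divided, with Gpx1 at 1.04 and the extracellular Gpx3 at -4.35, and Sod1 at 1.34 and Sod3 at -1.10.

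Enolase was the reverse of its listing. Eno3, the muscle enolase, listed here as the liver form, was 2.28-fold higher in lung and Eno1 2.09-fold higher in liver. In 2 pairs both members were higher in liver, the acyl-CoA synthetases Acsl1 and Acsl4 (4.11 and 1.20) and the retinoid X receptors Rxra and Rxrg (1.63 and 3.04). In 9 pairs at least 1 member was not called, among them the arginases, where Arg1 of the urea cycle differed by 5.44 and Arg2 by -0.34, and Pck1 and Pck2, by 6.12 and -0.56. No pair was tested as such.

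**Figure D5:**
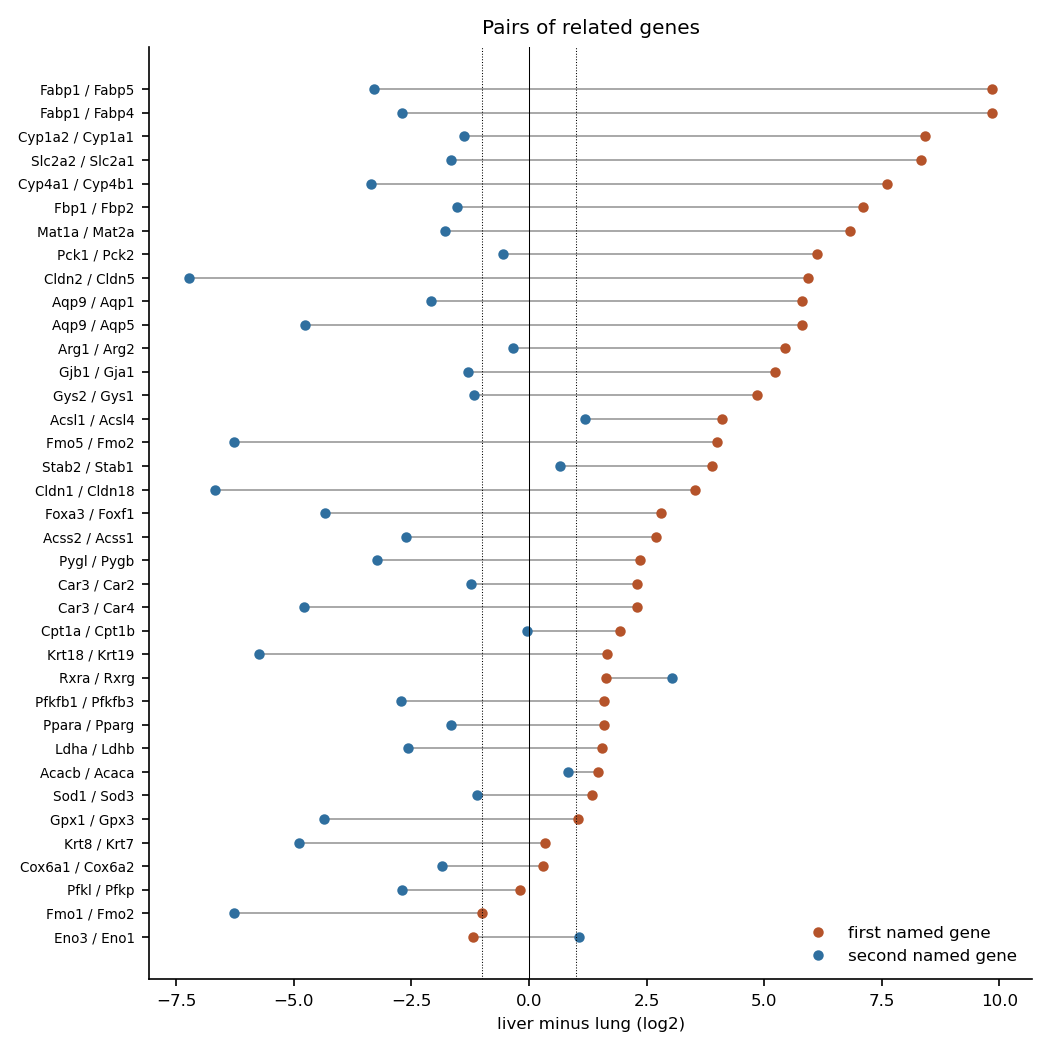
Liver minus lung difference (log2) of both genes of 37 pairs, the first named gene (listed as the liver form) in red-brown and the second in blue, ordered by the first. Dotted lines mark 2-fold in each direction. Most pairs straddle 0, and Eno3 and Eno1 are in reversed order.

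The 33 mixture arrays, which enter the comparison of the pure tissues through the estimate of the spread and the choice of 1 probe set per gene but not through the tissue means, were regressed on the labelled shares of liver, brain and lung. From mixtures alone, 4202 of 14217 genes (29.6%) were called higher in liver than in lung and 5329 (37.5%) higher in lung when every adjusted p under 0.05 counted, whatever the fold. Together these were 67.0% of all genes. The mixtures hold cRNA of the same tissues, so a match repeats the measurement and not the tissue. Of the 1955 genes higher in pure liver 1908 (97.6%) were called the same way in the mixtures, and they were 45.4% of the mixture calls of that direction. Of the 2924 genes higher in pure lung 2666 (91.2%) were called the same way, 50.0% of the mixture calls. The opposite way were 0 liver calls and 14 lung calls. This count was 7 without an intensity trend in the variance and 0 with log2 values. All 14 had a brain level above their lung level, 8.41 to 10.33 in brain against 4.67 to 6.71 in lung, among them Dclk1, Lgi1 and Opcml. Hnf4a was at 10.56 in both mixtures with 70% liver and 6.55 with 5% liver. Hopx was at 12.40 with 70% lung and 8.66 with 1% lung.

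Promoters were searched for short motifs of factors known in liver and lung, and the groups past 64-fold were formed after their values were seen. RefSeq promoters of build GRCr8 were matched for 11700 of the 14217 genes, and the 250 bases before each start were searched. The HNF1 motif GTTAAT, on either strand, was found in 23.3% of 133 matched genes at least 64-fold higher in liver. It was in 5.99% of all genes higher in liver, 3.37% of those higher in lung and 4.32% of all measured genes. Over all 27457 RefSeq promoters, of measured genes or not, the share was 6.46%, above that of all genes higher in liver. Of 30 matched genes at least 64-fold higher in lung, 0 held the HNF1 motif. The HNF4 motif CAAAGTC was in 9.77% of the strong liver genes and 3.19% of all measured genes, the FOXA motif TGTTTAC in 9.02% and 2.16%, the C/EBP motif TTGCAA in 9.02% and 4.32% and the NKX2-1 motif CACTTGA in 3.01% and 1.93%, all on both strands. In the 30 strong lung genes each of these 4 motifs was found in 1 gene (3.33%). The TATA box TATAAA, on the gene strand only, was in 12.0% of the strong liver genes, 13.3% of the strong lung genes and 5.55% of all measured genes. Over all 27457 promoters the shares were higher than over measured genes: HNF4 3.95%, FOXA 3.25%, C/EBP 4.96%, NKX2-1 2.59% and TATA box 8.38%. Their median GC content was 52.0%. Base composition moved with these shares: the median GC content was 48.0% in the strong liver genes, 54.4% in the strong lung genes and 59.2% in all measured genes, and its part in the shares was not tested. A match is a description of letters and not a binding site.

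Of the 20 leading genes 15 had a matched promoter, and 7 of these held none of the motifs: A1bg, Serpinc1, Akr1b7, Sftpb, Lamp3, Sec14l3 and Ly6i. The other 8 held at least 1, with Hpd carrying the HNF1 motif at 154 bases before the start and Cyp2c12 the TATA box at 52. From those 8, 6 are printed as the 150 bases before the start, with matches in capitals, to show where they lie. Fgb (chr2:170700876-170701025, minus strand), Rup2 (chr8:43551457-43551606, minus strand) and Fabp1 (chr4:104749190-104749339, plus strand) carry the HNF1 motif, at 90 bases before the start in Fgb, 135 and 46 in Rup2 and 117 in Fabp1. Fabp1, Scgb1a1 (chr1:215409687-215409836, minus strand) and Sftpa1 (chr16:17042114-17042263, plus strand) carry the TATA box, at 40, 41 and 39 bases. Cyp2c7 (chr1:247966244-247966393, plus strand), a liver gene, carries the lung factor motif of NKX2-1 at 116 bases and a TATA box at 31.
Fgb: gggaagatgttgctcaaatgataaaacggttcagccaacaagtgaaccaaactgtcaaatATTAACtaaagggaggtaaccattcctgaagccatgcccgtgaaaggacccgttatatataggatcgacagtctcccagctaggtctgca
Rup2: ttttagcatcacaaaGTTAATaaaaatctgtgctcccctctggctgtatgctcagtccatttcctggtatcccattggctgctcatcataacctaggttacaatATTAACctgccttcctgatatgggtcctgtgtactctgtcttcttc
Fabp1: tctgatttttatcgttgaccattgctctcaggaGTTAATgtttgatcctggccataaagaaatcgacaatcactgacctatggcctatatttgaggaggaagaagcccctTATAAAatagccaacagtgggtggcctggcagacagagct
Cyp2c7: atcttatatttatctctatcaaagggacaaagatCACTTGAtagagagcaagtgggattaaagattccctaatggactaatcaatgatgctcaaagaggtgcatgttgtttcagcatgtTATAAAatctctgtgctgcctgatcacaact
Scgb1a1: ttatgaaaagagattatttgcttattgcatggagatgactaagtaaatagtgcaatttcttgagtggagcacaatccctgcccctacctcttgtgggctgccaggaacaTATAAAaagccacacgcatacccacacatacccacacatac
Sftpa1: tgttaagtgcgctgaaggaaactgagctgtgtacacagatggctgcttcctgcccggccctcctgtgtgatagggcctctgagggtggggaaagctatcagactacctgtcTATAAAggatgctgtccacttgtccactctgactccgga

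Of 4525 genes with several probe sets, 18 had probe sets called in opposite directions. Plin2, the lipid droplet protein, was higher in liver by 1.62 on its brighter probe set and higher in lung by 2.60 on the other. Fpgs, the folate polyglutamate synthase, differed by -2.59 and 3.18, Rcn1 by -2.86 and 1.04 and Arnt2 by -2.37 and 1.51. For these genes the direction depends on the probe set, and levels of different probe sets cannot be compared.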

How the data were processed

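RNA of rat liver, lung and brain was extracted with Trizol and RNeasy, and mixed as cRNA, per the labels. For every probe set the authors deposited a log2 value from RMA normalization (version not given in the sources used here), per the submitters' processing notes. Of 31099 probe sets, 57 controls were left out and 31042 tested with limma 3.58.1 in R 4.3.3: 1 mean per group over all 42 arrays, so that mixtures and brain share in the estimate of the spread, liver minus lung, Benjamini-Hochberg adjustment over all probe sets. GEO's platform annotation gave 1 gene for 20826 probe sets, several for 436 and none was listed for 9780. Each of 14217 genes was represented by the probe set with the highest mean over all arrays. Replicate numbers follow accession order. On simulated data 100% of changes of 2.5-fold and more were recovered and 0% at 1.5-fold, below the fold limit, with 0 false calls. The simulated spread was that between replicate arrays, so the fold limit made this outcome near certain. It says nothing of scaling, compression or other animals. The 11 mixture means were regressed on labelled shares on the linear scale. The levels at 5% of a tissue were set against those computed from the shares, a check added after the values were seen. The number of arrays limits the precision.

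Named genes are the 10 largest differences in each direction, up to 3 called members per list and direction, pairs called in opposite directions, and all reference genes. Members and lists were chosen with earlier results of these data known. The list of sex-dependent liver genes was made after values were seen. It was at one stage shortened, and the 3 measured genes then removed are again included. Alternatives covered the arrays fitted, scaling, background, dim probe sets, the fold limit, the test, the variance model, the probe set per gene and leaving out each array.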

Additional observations from a re-analysis of the deposited data

How the results depend on the processing

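No paired analysis was possible because the replicate numbers follow accession order and pair no arrays. Leaving out each of the 6 arrays in turn gave 3400 to 3460 probe sets higher in liver, 5305 to 5389 probe sets higher in lung, 1955 to 1989 genes higher in liver, 2909 to 2945 genes higher in lung, and a share of called genes higher in liver of 39.9% to 40.6%. Scaling mattered more. The probe sets higher in liver numbered 5298 after median centring, 1413 after the hybridisation control curve and 5856 with the 5th percentile subtracted, and probe sets higher in lung 12509 after that curve, which gave 926 and 6373 genes. A 1.5-fold limit gave 7276 probe sets higher in liver and 3544 genes higher in liver. A 4-fold limit gave 1224 and 2160 probe sets and 793 and 1317 genes higher in liver and lung. The share of called genes higher in liver was 54.4% after median centring, 45.7% after repeated quantile normalization, 12.7% after the curve, 44.0% with the 5th percentile subtracted, 38.7% by limma treat, 45.4% and 37.6% at 1.5-fold and 4-fold, 41.9% with the probe set of largest difference and 42.6% with the mean over probe sets. Tbp (-0.44) and Gusb (-0.13) reversed after the curve. The cause was not tested.

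Of 6049 values of 319 named genes under the alternatives, 5903 kept their direction and side of the threshold, 132 fell below it and 12 rose past it, and 244 genes kept both throughout. Of 2622 list counts 221 moved by over 1.5 times. A fit of only the 6 liver and lung arrays gave the same 1955 and 2924 genes, as did the 9 pure tissue arrays and a variance trend. These settings leave the tissue means unchanged and the fold limit alone set the counts, so they are no separate check. The 6049 values include them. Levels near the dap control and compression above a level of 12 limit the folds, and arrays of the same RNA say nothing of other animals.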
